A study of Fukomys damarensis and Heterocephalus glaber and Cavia porcellus with 28 samples.

Results

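The genes described here are the enzymes that build cholesterol and fatty acids and the regulators of those enzymes. A list of 35 symbols was drawn up, and its members were the rows of the heart and liver tables whose mouse gene identifier carries 1 of those symbols. Of the 35, 33 had a row in both tables, out of 13928 rows in each, and all 33 passed the filter on low values in both tissues. Acat2 and Fdps were not analysed here. By role the 33 are 5 enzymes of the mevalonate part of the pathway, 11 of the sterol part, 6 enzymes of fatty acid synthesis, 4 that elongate or desaturate fatty acids and 7 regulators.

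The measurements come from total RNA, depleted of ribosomal RNA and sequenced, from heart and liver of 4 rodents: the naked mole-rat (Heterocephalus glaber), the Damaraland mole-rat (Fukomys damarensis), the guinea pig (Cavia porcellus) and the mouse (Mus musculus). By its title the study asks how gene expression evolved in mole-rats, and the guinea pig and mouse serve below as the outgroups. Heart came from 3 mice, 3 guinea pigs, 3 naked mole-rats and 5 Damaraland mole-rats, and liver from 2 mice, 3 guinea pigs, 4 naked mole-rats and 5 Damaraland mole-rats. Of the 18 animals, 10 gave both tissues. The naked mole-rats were 13 to 17 months old, the Damaraland mole-rats 36 to 48 months, the guinea pigs 2.3 months and the mice 2 months. Species and age therefore cannot be told apart in any comparison. All animals were male except for 1 female, the source of Damaraland liver replicate 4, and the labels of 1 Damaraland animal give different ages for its heart and its liver. The strain, colony, diet, feeding state and time of day were not given in the sources used here.

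Cells make cholesterol from acetyl-CoA by way of mevalonate, isoprenoids, squalene and lanosterol, and they make palmitate from malonyl-CoA on fatty acid synthase before elongating and desaturating it. Both pathways are switched on by the SREBP transcription factors, which are carried from the endoplasmic reticulum by SCAP and held back there by the INSIG proteins when sterols are plentiful. Liver is a main site of both pathways in rodents, and its fatty acid enzymes are known to follow feeding through insulin and the carbohydrate sensor ChREBP, whereas heart muscle mostly oxidises fatty acids and uses malonyl-CoA to regulate that oxidation.

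Levels are given on the deposited log2-like scale, on which 0 reads have the value 5.36 in heart and 4.29 in liver. A step of 1 is close to a 2-fold change for well-expressed genes and understates the change of rare ones. Values of a group are listed in replicate order, errors of group means are SD over animals and errors of differences are the standard error of limma, a linear model fitted across all genes of a tissue. Scaled reads are reads recovered from these values and divided by the library's size factor. A gene was called in a comparison at an adjusted p under 0.05 and a difference of at least 1. It was counted as shifted in both mole-rats when it was called, with the same sign, in all 4 contrasts of a mole-rat with an outgroup. It was counted for a species alone when it was called against each of the other 3. The p-values weigh a difference against the spread of animals within species. They do not measure how species vary within the mole-rats or within the outgroups, so they do not test a difference between the lineages. Where a call was lost on leaving out a single library, that library is named, with the difference that then missed the size threshold or the adjusted p threshold in parentheses. With 1 mouse liver left out, the other is taken to vary like the other groups. Levels are compared between species for the same gene and not between genes. The length of a gene's transcripts in each species was not given, so a length difference between orthologs would be part of any species difference. Whether the replicates differ only as animals is not stated beyond their individual names, and in bulk tissue fewer cells of a type and less RNA per cell cannot be told apart.

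Heart libraries held 4089633 to 26985779 reads and liver libraries 11220505 to 21467939, with naked mole-rat heart replicate 3 the shallowest. Tissue labels were checked with marker genes: 7 cardiomyocyte genes summed to 705900 to 2076370 scaled reads in heart libraries and 506 to 3705 in liver libraries, and 7 of 8 listed hepatocyte genes summed to 917047 to 3102350 in liver. The same hepatocyte genes summed to 11936 to 32207 scaled reads in the naked mole-rat hearts, against 348 to 5359 in the hearts of the other species. Alb made up most of the hepatocyte sums in liver, at 649468 to 2640670, and single genes differed between livers. Cyp2e1 had 150 to 36305 scaled reads in Damaraland livers and 63187 to 248469 in the others. Apoa2 had 1020 to 2024 in naked mole-rat, 2634 to 8569 in guinea pig, 64699 to 104179 in Damaraland and 75555 to 83206 in mouse livers. Transcripts of the mitochondrial genome took 0.00565% to 0.0279% of reads in Damaraland heart and 0.00339% to 0.0172% in Damaraland liver, against 2.88% to 26.9% in the libraries of the other species.

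In liver most members were called higher in the mean of the mole-rats than in the mean of the outgroups, but fewer than that against the mouse alone. In the contrast of the mean of the mole-rats with the mean of the outgroups, 19 of the 33 were called higher and 1, Sc5d, lower, where 15.1% of all 10887 genes tested were called higher and 13% lower. The median difference over the members was 1.16, against 0.02 over all genes tested. The low guinea pig values enter this contrast. Against the mouse, naked mole-rats had 11 members called higher and 10 lower, where 21.1% and 20.1% of all genes were, with a median of -0.24, and Damaraland mole-rats 13 and 6, where 20.9% and 18.4% were, with a median of 0.53. The 19 were Hmgcs1, Pmvk and Mvd in the mevalonate part, Fdft1, Sqle, Lss, Cyp51, Msmo1 and Nsdhl in the sterol part, Acss2, Acaca, Fasn and Me1 in fatty acid synthesis, Elovl5, Elovl6 and Fads2 among the elongases and desaturases, and Srebf2, Insig1 and Thrsp among the regulators. Every mole-rat library was above every outgroup library for 8 members, where 8.74% of all genes did so. The stricter count, shifted in both mole-rats, held 5 members, all higher: Hmgcs1, Fdft1, Sqle, Cyp51 and Msmo1. Over all genes tested 3.42% were shifted higher in both mole-rats. This count rests in part on the 2 mouse livers. It was 3 without mouse liver replicate 1 (Fdft1, Sqle and Msmo1) and 8 without mouse liver replicate 2, when Acaca, Acss2 and Pmvk joined. It was 8 after quantile normalization, and under treat, a limma test against a difference of 1 itself, it was 0, with 13 calls in the average contrast.

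In heart the average contrast called 7 members higher (Pmvk, Sqle, Lss, Nsdhl, Acaca, Fasn and Insig1) and 2 lower (Hsd17b7 and Sc5d), where 10.8% of the 10667 genes tested were called higher and 12.6% lower, and the median over the members was 0.51 against -0.01 over all genes. All 7 were also called higher in liver, and Sc5d was lower in both tissues. Pmvk and Sqle stood just past the size threshold, at 1.02 each. Pmvk lost its call without Damaraland mole-rat replicate 2 (0.95), Damaraland mole-rat replicate 5 (0.93), guinea pig replicate 1 (0.96), mouse replicate 3 (0.997), naked mole-rat replicate 1 (0.98) and naked mole-rat replicate 2 (0.98). Sqle lost its call without Damaraland mole-rat replicate 1 (0.99), Damaraland mole-rat replicate 3 (0.95), guinea pig replicate 3 (0.97), mouse replicate 3 (0.94) and naked mole-rat replicate 1 (0.98). With limma, 0 members were shifted higher in both mole-rats in heart and 1, Sc5d, was shifted lower, where 2.06% and 2.62% of all genes were. At an unadjusted p under 0.05 in all 4 contrasts, with no size threshold, 3 members were higher, and voom on the recovered reads called 1, Nsdhl. In the average contrast voom called 15 members in heart and treat called 1, Acaca. Without naked mole-rat heart replicate 3, the shallowest library, 2 members were shifted in both: Fasn, higher, and Sc5d.

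**Figure D1:**
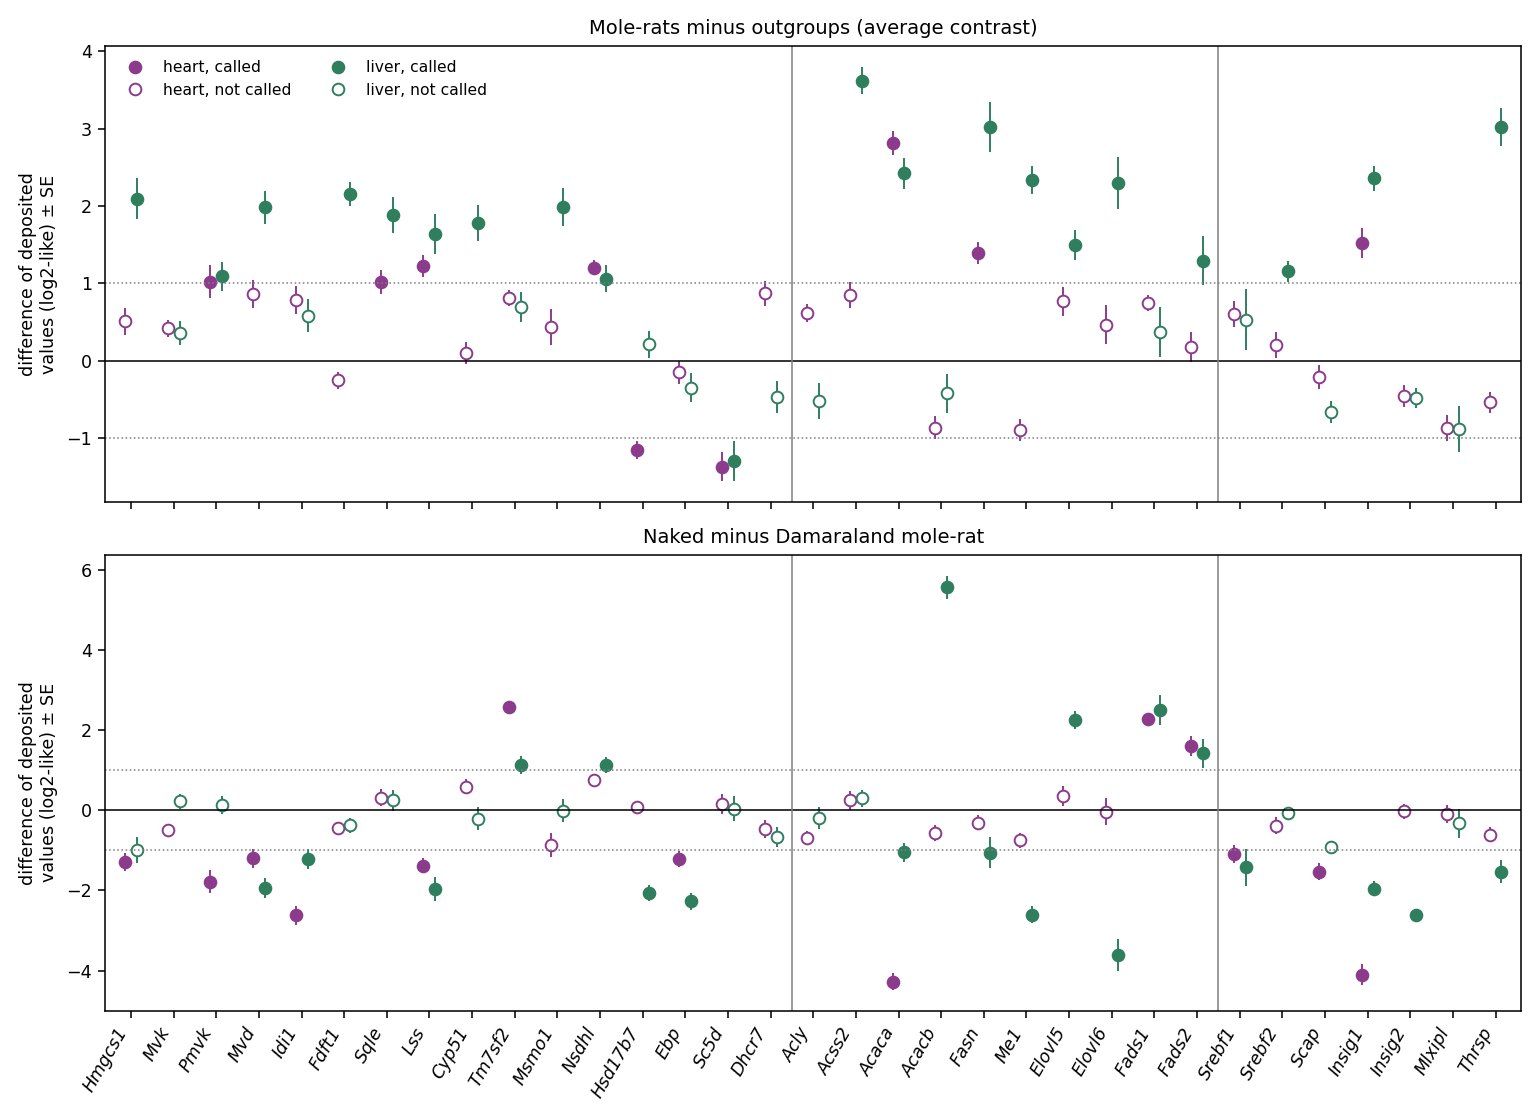
Difference of deposited log2-like values ± SE for each of the 33 members in heart and liver, for the mole-rats against the outgroups (upper panel) and the naked against the Damaraland mole-rat (lower panel). Filled points were called, dotted lines mark a difference of 1 in either direction and vertical lines separate cholesterol enzymes, fatty acid enzymes and regulators; in the upper panel 19 liver members lie above the upper dotted line as filled points and in heart 7 do.

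The mole-rats also differed from each other. In liver, 6 members were called higher in the naked than in the Damaraland mole-rat and 13 lower, where 16.6% and 17.6% of all genes were, with a median of -0.38 against -0.03 over all genes. In heart, 3 were called higher and 10 lower, where 14.2% and 15.2% of all genes were. Fads1, Fads2 and Tm7sf2 were higher in the naked mole-rat in both tissues, and Acaca, Ebp, Idi1, Insig1, Lss, Mvd and Srebf1 were lower in both. Damaraland mole-rats alone, against each of the other 3 species, were higher for 7 members in liver (Mvd, Lss, Hsd17b7, Acaca, Fasn, Elovl6 and Insig1), where 5.51% of all genes were. They were higher alone for 6 in heart (Hmgcs1, Pmvk, Mvd, Idi1, Acaca and Insig1), where 3.86% of all genes were. Guinea pig alone was lower for 12 members in liver (Nsdhl, Acss2, Acaca, Fasn, Me1, Elovl5, Elovl6, Fads1, Fads2, Srebf1, Insig1 and Thrsp), where 4.28% of all genes were. Their low values enter the outgroup mean of the average contrast, in which 10 of these 12 were called. In liver the naked mole-rat alone was higher for 1 member, Nsdhl, and lower for 2, Ebp and Insig2, where 5.83% and 4.45% of all genes were. Mouse livers alone were higher for 3 (Acly, Fads1 and Fads2) and lower for 2 (Mvd and Srebf2), where 6.33% and 5.83% were. In heart the naked mole-rat alone was higher for 2 members (Fads1 and Tm7sf2), where 4.87% of all genes were, and guinea pig alone was lower for 1, Elovl5, where 2.62% were.

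The liver values of the mevalonate enzymes are taken first. Hmgcs1 is HMG-CoA synthase, which makes the substrate of the rate-limiting reductase. In liver its values were 12.57, 12.53, 14.26 and 12.52 in the naked mole-rats, 13.56, 14.20, 13.83, 14.31 and 13.90 in the Damaraland mole-rats, 11.47, 11.13 and 10.45 in the guinea pigs, and 11.54 and 11.92 in the mice. All 9 mole-rat livers lay above all 5 outgroup livers, and naked mole-rat replicate 3 stood apart above the other 3 naked mole-rats. The 4 contrasts of a mole-rat with an outgroup ran from 1.24 to 2.95 (largest adjusted p = 0.0131). Hmgcs1 was no longer shifted in both without mouse replicate 1 (1.05) and naked mole-rat replicate 3 (0.81). The mean was 16164 scaled reads in the Damaraland mole-rats and 9322 in the naked mole-rats, against 2117 in guinea pigs and 3394 in mice.

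Mvd, which decarboxylates mevalonate diphosphate, was highest in the Damaraland livers and lowest in the mouse livers. Its values were 10.67, 11.37, 10.84, 10.80 and 11.12 in the Damaraland mole-rats, 8.41, 8.83, 9.90 and 8.94 in the naked mole-rats, 8.30, 8.75 and 8.58 in the guinea pigs, and 7.02 and 7.92 in the mice. The Damaraland animals lay above all others, with differences from the other species of 1.94 to 3.49 (largest adjusted p = 3.23e-06), and the mice lay below all others, at -1.08 to -3.49 (largest adjusted p = 0.0131). The mouse call was lost without guinea pig replicate 2 (-0.97) and mouse replicate 1 (-0.62). The naked mole-rats and guinea pigs between them overlapped. Pmvk, phosphomevalonate kinase, lay between 9.23 to 10.55 in Damaraland and 9.58 to 10.12 in naked mole-rat livers, above the guinea pigs (8.52 to 8.82) and mice (8.46 to 9.17), with an average contrast of 1.09 (SE 0.19, adjusted p = 7.27e-05) that lost its call without Damaraland mole-rat replicate 1 (0.99) and mouse replicate 1 (0.92). Idi1, isopentenyl diphosphate isomerase, was called higher in the Damaraland than in the naked mole-rat, with a naked minus Damaraland difference of -1.22 (SE 0.25, adjusted p = 0.000334), and its average contrast of 0.58 was not called. Mvk, mevalonate kinase, differed little: its species means ran from 8.52 in mouse to 9.27 in naked mole-rat, and neither the average contrast nor the contrast between the mole-rats was called.

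The sterol part begins with Fdft1, squalene synthase, the step that commits isoprenoids to sterols. Its liver values were 11.97, 12.46, 12.83 and 12.16 in the naked mole-rats, 12.50, 12.96, 12.68, 12.90 and 12.63 in the Damaraland mole-rats, 10.94, 11.12 and 10.57 in the guinea pigs, and 9.72 and 10.09 in the mice. Each of the 9 mole-rat livers exceeded each outgroup liver. The smallest of the 4 mole-rat contrasts was against the guinea pig and the largest against the mouse, 1.48 to 2.83 (largest adjusted p = 7.32e-06). Mean scaled reads were 5345 and 6818 in the naked and Damaraland mole-rats and 1868 and 926 in guinea pig and mouse.

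Sqle is squalene epoxidase, a rate-limiting step after the reductase. Liver Sqle was 11.43, 11.50, 11.27, 11.42 and 11.09 in the Damaraland mole-rats, 11.01, 11.46, 12.37 and 11.50 in the naked mole-rats, 9.93, 9.66 and 9.13 in the guinea pigs, and 8.89 and 10.28 in the mice. The mole-rat and outgroup ranges did not overlap, although the 2 mice differed from each other by more than 1 unit. The 4 contrasts ran from 1.75 to 2.02 (largest adjusted p = 0.000238), and the mole-rats did not differ by a call (naked minus Damaraland 0.24 (SE 0.27, adjusted p = 0.44)).

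Lanosterol is made by Lss and demethylated by Cyp51, Msmo1, Nsdhl and Hsd17b7. Cyp51 had liver values of 12.19, 12.88, 13.05 and 12.65 in the naked mole-rats, 13.03, 13.06, 13.31, 13.20 and 11.90 in the Damaraland mole-rats, 10.96, 10.59 and 10.52 in the guinea pigs, and 10.81 and 11.87 in the mice. All mole-rat livers lay above all outgroup livers, narrowly, since Damaraland replicate 5 at 11.90 stood beside mouse replicate 2 at 11.87. The contrasts were 1.35 to 2.21 (largest adjusted p = 0.00318), and Cyp51 left the set without mouse replicate 1 (0.82). Msmo1, the sterol C4-methyl oxidase, measured 12.46, 13.08, 12.85 and 11.93 in the naked mole-rats, 11.74, 13.11, 12.61, 13.05 and 12.45 in the Damaraland mole-rats, 10.88, 9.96 and 9.92 in the guinea pigs, and 10.66 and 11.21 in the mice. Here too every mole-rat library exceeded every outgroup library, and the species means of the mole-rats were 12.58 and 12.59. The 4 contrasts were 1.64 to 2.34 (largest adjusted p = 0.00101).

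Lss, lanosterol synthase, belonged to the Damaraland mole-rat alone. Its liver values were 12.56, 13.15, 12.67, 12.90 and 12.87 in the Damaraland mole-rats, 10.10, 10.97, 11.44 and 10.94 in the naked mole-rats, 10.57, 10.91 and 10.51 in the guinea pigs, and 8.81 and 10.71 in the mice. The 5 Damaraland animals lay above all the others, whereas the naked mole-rats overlapped with guinea pigs and with 1 mouse. The Damaraland differences were 1.96 to 3.07 (largest adjusted p = 2.19e-05). Hsd17b7, the 3-ketosteroid reductase of C4 demethylation, showed the same order at the top, with 11.08, 11.33, 11.47, 11.43 and 11.57 in the Damaraland mole-rats, 8.86, 9.60, 9.80 and 8.97 in the naked mole-rats, 9.94, 9.70 and 10.22 in the guinea pigs, and 9.95 and 10.65 in the mice. Its Damaraland differences were 1.07 to 2.07 (largest adjusted p = 0.00148), and the naked mole-rats had the lowest mean. The Damaraland call was lost without mouse replicate 1 (0.72).

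Nsdhl, the C4 decarboxylase, was the member that naked mole-rat livers alone had at a higher level. It measured 9.98, 10.33, 10.85 and 10.63 in the naked mole-rats, 9.11, 9.55, 9.13, 9.40 and 9.42 in the Damaraland mole-rats, 8.47, 8.58 and 7.598 in the guinea pigs, and 9.25 and 9.61 in the mice. The 4 naked mole-rats were above all other livers and the 3 guinea pigs below all others. Naked mole-rat differences were 1.02 to 2.23 (largest adjusted p = 0.00317), and guinea pig differences were -1.10 to -2.23 (largest adjusted p = 0.00144). The naked mole-rat call was lost without mouse replicate 1 (0.84), naked mole-rat replicate 3 (0.88) and naked mole-rat replicate 4 (0.96), and the guinea pig call without guinea pig replicate 3 (-0.79). The average contrast of Nsdhl, 1.06 (SE 0.18, adjusted p = 4.41e-05), lost its call without guinea pig replicate 3 (0.90), mouse replicate 1 (0.97) and naked mole-rat replicate 3 (0.99). Ebp, the sterol isomerase, went the other way in the naked mole-rat, with 9.22, 9.94, 9.28 and 9.29 in the naked mole-rats, 11.42, 11.96, 11.82, 12.17 and 11.16 in the Damaraland mole-rats, 10.82, 10.05 and 10.85 in the guinea pigs, and 11.24 and 11.27 in the mice. Its naked mole-rat differences were -1.14 to -2.27 (largest adjusted p = 0.000773), and all 4 animals lay below every other liver, replicate 2 most narrowly.

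Of the remaining sterol enzymes, Sc5d, the sterol C5-desaturase, was the 1 member called lower in mole-rat liver, at -1.30 (SE 0.26, adjusted p = 0.000301) in the average contrast. Its livers ranged over 9.81 to 11.81 in naked and 10.49 to 11.41 in Damaraland mole-rats, against 11.67 to 12.27 in guinea pigs and 12.70 to 12.87 in mice, so the naked mole-rats and guinea pigs overlapped. Tm7sf2, a sterol C14-reductase, was called higher in the naked than in the Damaraland mole-rat, by 1.12 (SE 0.23, adjusted p = 0.00034), a call lost without naked mole-rat replicate 3 (0.85). Dhcr7, the last reductase on the way to cholesterol, had species means of 9.38 in naked mole-rats and 10.04 to 10.22 in the others and was called neither in the average contrast nor between the mole-rats.

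**Figure D2:**
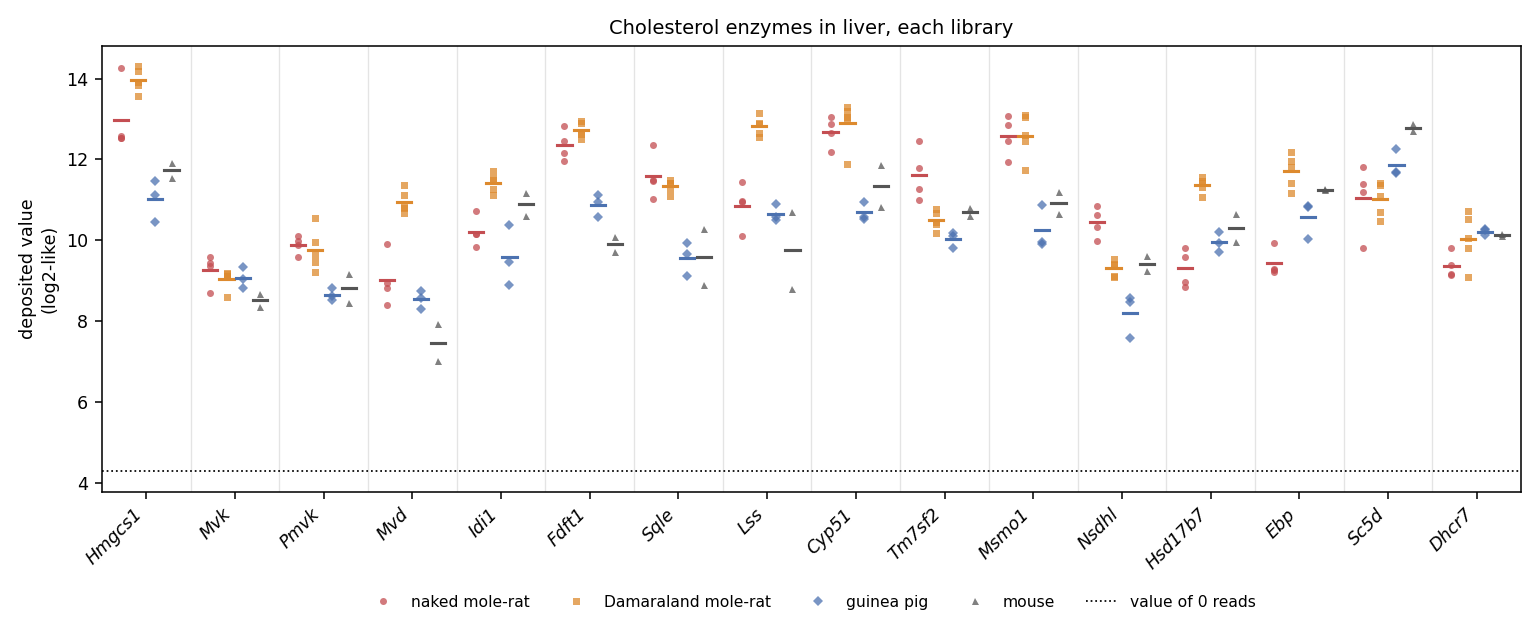
Deposited log2-like value of each liver library for the 16 cholesterol enzymes, in pathway order, with a bar at the species mean and a dotted line at the value of 0 reads (4.29). For Hmgcs1, Fdft1, Sqle, Cyp51 and Msmo1 the mole-rat points all lie above the guinea pig and mouse points, and for Lss and Mvd the Damaraland points stand above the rest.

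In fatty acid synthesis the guinea pig liver was lower alone for 4 of the 6 enzymes, Acss2, Acaca, Fasn and Me1, where 4.28% of all genes were. Acly, ATP-citrate lyase, supplies cytosolic acetyl-CoA from citrate. Its liver values were 9.64, 10.54, 10.78 and 10.61 in the naked mole-rats, 10.91, 10.29, 11.20, 9.76 and 10.79 in the Damaraland mole-rats, 9.80, 9.92 and 10.08 in the guinea pigs, and 11.67 and 12.49 in the mice. Only the mouse stood apart, higher, with differences of 1.49 to 2.15 (largest adjusted p = 0.00119), and the other 3 species overlapped. This call was lost without mouse replicate 2 (1.08). Acss2 makes acetyl-CoA from acetate and measured 12.22, 13.06, 13.53 and 12.84 in the naked mole-rats, 12.49, 12.75, 12.75, 12.39 and 12.70 in the Damaraland mole-rats, 6.83, 6.71 and 6.42 in the guinea pigs, and 11.35 and 11.92 in the mice. The guinea pigs lay far below the rest, with differences of -4.98 to -6.26 (largest adjusted p = 2.43e-10), with a mean of 66.2 scaled reads against 3202 in mice and 8082 in naked mole-rats. All 9 mole-rats were above both mice, but the Damaraland minus mouse difference of 0.98 (SE 0.26, adjusted p = 0.00372) was under the size threshold.

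Acaca, acetyl-CoA carboxylase 1, makes the malonyl-CoA that fatty acid synthase consumes. In liver it measured 14.01, 13.59, 13.79, 13.24 and 14.14 in the Damaraland mole-rats, 12.14, 13.15, 12.77 and 12.75 in the naked mole-rats, 9.66, 10.34 and 9.43 in the guinea pigs, and 11.55 and 12.05 in the mice. The 4 species lay in the order Damaraland mole-rat, naked mole-rat, mouse and guinea pig without any overlap. The Damaraland animals were higher than the others, with differences of 1.05 to 3.94 (largest adjusted p = 0.000813), and the guinea pigs lower, with differences of -1.99 to -3.94 (largest adjusted p = 4.77e-05). Fasn, fatty acid synthase, had values of 16.23, 15.86, 15.94, 15.20 and 16.26 in the Damaraland mole-rats, 13.92, 15.25, 14.79 and 15.41 in the naked mole-rats, 10.94, 12.00 and 9.82 in the guinea pigs, and 13.41 and 14.17 in the mice. Its species means followed the same order, but Damaraland replicate 4 overlapped with the naked mole-rats, and naked replicate 1 with a mouse. The Damaraland differences of Fasn were 1.06 to 4.98 (largest adjusted p = 0.0208), and the guinea pig differences were -2.87 to -4.98 (largest adjusted p = 0.000141). For both genes the naked minus Damaraland difference (-1.05 for Acaca and -1.06 for Fasn) was near the size threshold. The Damaraland call of Acaca was lost without Damaraland mole-rat replicate 1 (0.99), Damaraland mole-rat replicate 5 (0.95) and naked mole-rat replicate 1 (0.86), and that of Fasn without Damaraland mole-rat replicate 1 (0.97), Damaraland mole-rat replicate 5 (0.96) and naked mole-rat replicate 1 (0.75).

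Acacb, acetyl-CoA carboxylase 2, makes malonyl-CoA at the mitochondrial surface, where it restrains the entry of fatty acids. It met no rule for a species alone and is given in full because of its size, a choice made after its values were seen. Liver Acacb was 10.83, 11.47, 12.45 and 11.06 in the naked mole-rats, 5.95, 5.81, 5.87, 5.16 and 6.71 in the Damaraland mole-rats, 6.25, 6.18 and 6.21 in the guinea pigs, and 11.80 and 12.17 in the mice. The species fell into 2 levels, near 0 reads in Damaraland mole-rat and guinea pig and high in naked mole-rat and mouse. Mean scaled reads were 31 and 40.3 in the low species and 3064 and 4044 in the high ones, and the naked minus Damaraland difference was 5.56 (SE 0.29, adjusted p = 3.61e-11). The 2 species that were low for Acacb stood at opposite ends for its paralog Acaca. Me1, the malic enzyme that supplies NADPH, was 12.83, 11.75, 12.70, 12.30 and 11.67 in the Damaraland mole-rats, 11.87 and 12.30 in the mice, 9.47, 9.95, 9.72 and 9.44 in the naked mole-rats, and 5.14, 5.21 and 5.09 in the guinea pigs. The guinea pigs had 7.12 scaled reads on average and lay below the other species, with differences of -4.50 to -7.10 (largest adjusted p = 7.76e-11). The naked mole-rats formed a middle group, below Damaraland mole-rats by a naked minus Damaraland difference of -2.60 (SE 0.22, adjusted p = 1.42e-08).

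Elongases and desaturases remodel palmitate and the polyunsaturated fatty acids of the diet. Elovl6, which elongates palmitate to stearate, was 14.35, 14.14, 14.46, 13.21 and 14.24 in the Damaraland mole-rats, 9.87, 10.87, 10.19 and 10.99 in the naked mole-rats, 9.69, 9.47 and 7.30 in the guinea pigs, and 10.88 and 11.41 in the mice in liver. Damaraland mole-rats were above every other liver, with differences of 2.93 to 5.26 (largest adjusted p = 6.39e-05), and guinea pigs were below the rest, with differences of -1.66 to -5.26 (largest adjusted p = 0.0039). The guinea pig call was lost without guinea pig replicate 3 (-0.90), the lowest of them. Elovl5, which elongates polyunsaturated fatty acids, was 12.04, 12.48, 13.17 and 12.35 in the naked mole-rats, 10.05, 9.77, 10.87, 10.37 and 10.22 in the Damaraland mole-rats, 7.49, 7.10 and 7.25 in the guinea pigs, and 12.26 and 12.72 in the mice. Naked mole-rats and mice overlapped at the top, Damaraland mole-rats lay below them, and guinea pigs were lowest, with differences of -2.97 to -5.23 (largest adjusted p = 1.38e-08).

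Fads1 and Fads2 are the delta-5 and delta-6 desaturases, neighbouring genes that work on the same polyunsaturated chains. Fads1 was 12.37 and 12.87 in the mice, 10.44, 11.62, 10.70 and 11.44 in the naked mole-rats, 7.53, 8.51, 7.97, 8.67 and 10.09 in the Damaraland mole-rats, and 6.46, 6.07 and 6.18 in the guinea pigs in liver. Fads2 was 12.76 and 13.55 in the mice, 10.69, 12.31, 10.41 and 11.40 in the naked mole-rats, 9.08, 9.84, 9.47, 9.49 and 11.04 in the Damaraland mole-rats, and 5.22, 5.34 and 5.17 in the guinea pigs. For each gene the mice were highest and the guinea pigs lowest, with no overlap with any other species. The mouse was higher, with differences of 1.57 to 6.38 (largest adjusted p = 0.00929) for Fads1 and of 1.95 to 7.91 (largest adjusted p = 0.00178) for Fads2, and the guinea pig was lower, with differences of -2.32 to -6.38 (largest adjusted p = 9.25e-05) and -4.54 to -7.91 (largest adjusted p = 3.16e-08). The mouse call of Fads1 was lost without mouse replicate 2 (1.32). Mean scaled reads of Fads2 ran from 8.86 in guinea pig to 9410 in mouse. Naked mole-rats exceeded Damaraland mole-rats by 2.49 (SE 0.38, adjusted p = 1.68e-05) for Fads1 and 1.42 (SE 0.37, adjusted p = 0.00276) for Fads2, and Damaraland replicate 5 was the highest of its species for both.

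The regulators in liver did not move as a block. Srebf1, which encodes the SREBP-1 of fatty acid genes, was 12.45, 12.42, 12.52, 11.001 and 12.81 in the Damaraland mole-rats, 12.34 and 13.04 in the mice, 10.55, 11.36, 9.76 and 11.59 in the naked mole-rats, and 9.11, 10.70 and 8.10 in the guinea pigs. Guinea pigs were lower than the others, with differences of -1.51 to -3.39 (largest adjusted p = 0.0192), although guinea pig replicate 2 lay within the naked mole-rats. This call was lost without guinea pig replicate 1 (-1.42), guinea pig replicate 3 (-0.91), naked mole-rat replicate 2 (-1.33) and naked mole-rat replicate 4 (-1.25). The naked mole-rats were lower than the Damaraland mole-rats, with a difference of -1.42 (SE 0.47, adjusted p = 0.0127), a call lost without naked mole-rat replicate 3 (-1.07). Srebf2, which encodes the SREBP-2 of cholesterol genes, was 11.15, 11.75, 11.96 and 11.67 in the naked mole-rats, 11.64, 11.99, 11.61, 11.78 and 11.50 in the Damaraland mole-rats, 11.17, 11.17 and 10.89 in the guinea pigs, and 9.89 and 10.00 in the mice. The mice lay below every other liver, with differences of -1.13 to -1.76 (largest adjusted p = 0.000303). Mole-rats and guinea pigs stood close together, and naked replicate 1 fell below 2 of the 3 guinea pigs.

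Insig1, an SREBP target as well as a brake on SREBP, was 14.34, 14.25, 14.46, 13.86 and 14.49 in the Damaraland mole-rats, 12.33, 12.58, 11.95 and 12.44 in the naked mole-rats, 9.003, 9.32 and 9.65 in the guinea pigs, and 12.25 and 12.89 in the mice in liver. The Damaraland livers were above all others, with differences of 1.71 to 4.95 (largest adjusted p = 8.09e-06) and the guinea pig livers below all others, with differences of -3.00 to -4.95 (largest adjusted p = 1.41e-08), while naked mole-rats and mice overlapped. Insig2, its paralog, was 9.54, 9.20, 9.73 and 9.24 in the naked mole-rats, 11.87, 11.92, 12.08, 12.32 and 11.99 in the Damaraland mole-rats, 10.37, 10.27 and 10.82 in the guinea pigs, and 11.89 and 11.98 in the mice. Naked mole-rats were lowest without overlap, with differences of -1.06 to -2.61 (largest adjusted p = 5.26e-05). The call was lost without guinea pig replicate 3 (-0.89), naked mole-rat replicate 2 (-0.98) and naked mole-rat replicate 4 (-0.99). Scap, the SREBP escort, was called neither in the average contrast nor between the mole-rats, with species means from 9.86 in naked mole-rat to 11.59 in mouse.

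Thrsp (Spot 14) is a marker of hepatic lipogenesis, and Mlxipl encodes ChREBP. Thrsp was 13.50, 12.53, 13.60, 12.26 and 12.81 in the Damaraland mole-rats, 11.96 and 13.21 in the mice, 11.09, 11.37, 11.67 and 11.50 in the naked mole-rats, and 5.87, 6.09 and 5.24 in the guinea pigs. Guinea pigs, with 23.1 scaled reads on average, lay below the other species, with differences of -5.67 to -7.20 (largest adjusted p = 2.41e-10). Mlxipl was 9.97, 9.76, 9.74 and 9.92 in the naked mole-rats, 9.48, 10.18, 9.93, 9.78 and 11.52 in the Damaraland mole-rats, 10.62, 12.19 and 10.99 in the guinea pigs, and 10.97 and 10.10 in the mice. The Damaraland animals spread from 9.48 to 11.52 and overlapped with every other species, and neither the average contrast (-0.88 (SE 0.30, adjusted p = 0.0146)) nor the contrast between mole-rats was called.

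**Figure D3:**
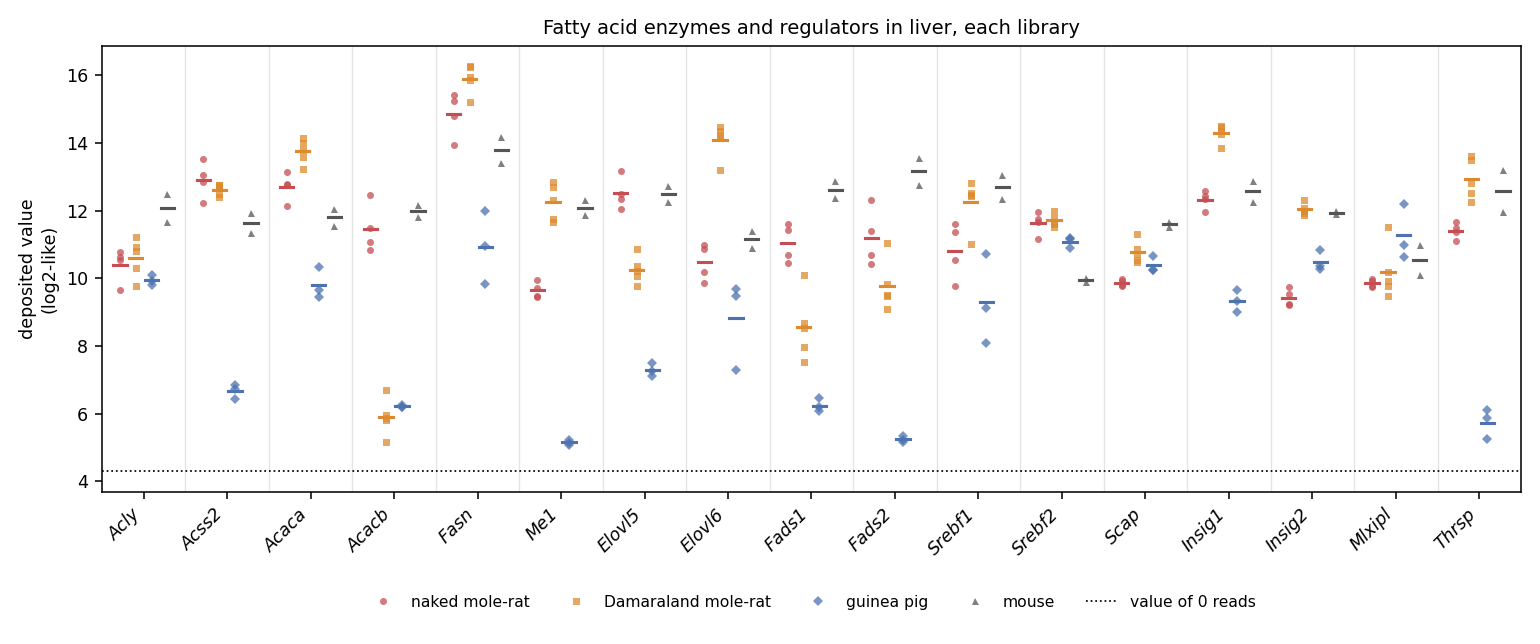
Deposited log2-like value of each liver library for the fatty acid enzymes and the regulators, with bars at species means and a dotted line at the value of 0 reads (4.29). The guinea pig points of Me1, Fads2 and Thrsp and the Damaraland and guinea pig points of Acacb lie close to the dotted line, and the Damaraland points are highest for Acaca, Elovl6 and Insig1.

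Over all liver members, the guinea pig minus mouse contrast called 17 members lower and 2 higher, where 18.4% and 18.8% of all genes were, and the Damaraland minus guinea pig contrast called 24 higher and 1 lower, where 19.1% and 17.1% were. These contrasts share libraries and are not independent. Markers of other cells also differed between the livers, in directions that varied from gene to gene. Of 4 listed bile duct genes 3 were in the tables, and they summed to 2136 to 2973 scaled reads in naked mole-rat, 834 to 2047 in guinea pig, 66.2 to 396 in Damaraland mole-rat and 26.8 to 47.2 in mouse. Epcam was highest in naked mole-rat (1883 to 2707, against 51.2 to 99.3 in guinea pig), whereas Krt19 (185 to 264 against 732 to 1963) and Krt7 (0.727 to 5.53 against 33.0 to 76.2) were higher in guinea pig. The 4 endothelial genes summed to 5739 to 7276 in guinea pig livers and 2161 to 4860 in the others. All 8 white adipocyte genes were in the tables and summed to 24357 to 42282 in Damaraland livers, 11008 to 30035 in naked mole-rat, 8374 to 22641 in guinea pig and 19202 to 52445 in mouse, where Lep and Retn were at 0. Pck1, which hepatocytes also express, made up most of these sums. Plin1 had 561 to 3057 scaled reads in Damaraland livers and at most 9.67 in the others, while Cidec had 0 to 2.23 in Damaraland livers and 4.07 to 42.5 in the others. Adipoq had 20.0 to 601 in Damaraland livers, overlapping 12.4 to 79.6 in naked mole-rat, and at most 3.39 in guinea pig and 1.18 in mouse. Retn had 18.1 to 63.5 in Damaraland livers and at most 4.15 in the others. Lep and Cfd did not follow, at most 1.05 and 62.2 in Damaraland livers, against 23.8 in naked mole-rat and 115 in guinea pig. Fabp4 overlapped between the mole-rats, at 20.2 to 160 in Damaraland and 85.8 to 151 in naked mole-rat livers. The part of these differences in the values of the members was not tested.

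Heart values follow in the same order. For Hmgcs1 they were 11.50, 11.25, 11.61, 10.85 and 10.55 in the Damaraland mole-rats, 10.28, 9.75 and 9.55 in the naked mole-rats, 10.14, 9.86 and 10.24 in the guinea pigs, and 9.84, 9.96 and 9.94 in the mice. All 5 Damaraland hearts were above all other hearts, and the remaining species overlapped, with Damaraland differences of 1.07 to 1.29 (largest adjusted p = 0.00059). The call was lost without Damaraland mole-rat replicate 1 (0.98), Damaraland mole-rat replicate 3 (0.96) and guinea pig replicate 2 (0.96). Pmvk was 8.96, 10.08, 9.54, 8.70 and 10.23 in the Damaraland mole-rats, 7.90, 7.90 and 7.36 in the naked mole-rats, 7.37, 7.76 and 7.74 in the guinea pigs, and 7.53, 7.67 and 7.46 in the mice. Mvd was 8.80, 8.72, 8.91, 8.62 and 9.21 in the Damaraland mole-rats, 8.05, 8.11 and 6.80 in the naked mole-rats, 7.75, 7.39 and 7.93 in the guinea pigs, and 7.11, 7.003 and 7.17 in the mice. Damaraland hearts were again above all others for both genes, with differences of 1.78 to 1.95 (largest adjusted p = 4.28e-05) for Pmvk and 1.16 to 1.76 (largest adjusted p = 0.000584) for Mvd. Naked mole-rat replicate 3, whose depth was lowest, gave the lowest value of both genes in its species, and the Mvd call was lost without naked mole-rat replicate 3 (0.77).

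Idi1 in heart was 10.57, 10.21, 10.56, 9.65 and 9.68 in the Damaraland mole-rats, 8.46, 8.59 and 8.06 in the guinea pigs, 7.80, 7.70 and 7.64 in the mice, and 7.33, 7.18 and 8.05 in the naked mole-rats. Damaraland hearts averaged 1087 scaled reads against 117 to 257 in the other species, with differences of 1.77 to 2.62 (largest adjusted p = 8.28e-06). Mvk was 8.04 to 8.48 in Damaraland and 7.61 to 8.03 in naked mole-rats and 7.74 to 8.12 in guinea pigs and 7.22 to 7.48 in mice, and it was called neither in the average contrast nor between the mole-rats. Thus 4 of the 5 mevalonate enzymes were higher in Damaraland heart alone, where 3.86% of all genes were. The calls of Hmgcs1 and Mvd among them did not hold in every fit without a single library, as given above.

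Among the 11 sterol enzymes of the heart the mouse stood apart for 3, Lss, Sqle and Hsd17b7, and the naked mole-rat for 1, Tm7sf2. Over all heart genes 6.6% were higher and 3.8% lower in mouse alone, and 4.87% were higher in naked mole-rat alone. Lss was 10.20, 9.64, 10.28, 9.68 and 10.15 in the Damaraland mole-rats, 9.81, 9.75 and 9.85 in the guinea pigs, 8.51, 8.29 and 9.02 in the naked mole-rats, and 6.41, 6.36 and 6.27 in the mice. The mice were lower, with differences of -2.26 to -3.64 (largest adjusted p = 7.3e-08), with 19.9 scaled reads on average against 955 in Damaraland mole-rats. Sqle was 8.83, 8.60 and 8.62 in the naked mole-rats, 8.56, 8.15, 8.90, 7.83 and 8.39 in the Damaraland mole-rats, 8.59, 8.56 and 8.28 in the guinea pigs, and 6.77, 6.61 and 6.23 in the mice. The mice were lower here too, with differences of -1.83 to -2.15 (largest adjusted p = 1.72e-06), and the Damaraland values spanned those of naked mole-rats and guinea pigs. Hsd17b7 was 9.26, 9.27 and 9.36 in the mice, 7.92, 7.77 and 7.95 in the guinea pigs, 7.32, 7.54, 7.28, 7.51 and 7.33 in the Damaraland mole-rats, and 7.36, 7.17 and 7.90 in the naked mole-rats. The mice were higher for this gene, with differences of 1.42 to 1.90 (largest adjusted p = 2.99e-06).

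Sc5d was the member shifted lower in both mole-rats in heart. Its values were 7.88, 7.36 and 7.83 in the naked mole-rats, 8.26, 7.57, 7.74, 7.26 and 6.81 in the Damaraland mole-rats, 9.22, 8.68 and 8.71 in the guinea pigs, and 9.14, 9.04 and 9.08 in the mice. All 8 mole-rat hearts lay below all 6 outgroup hearts, with Damaraland replicate 1, at 8.26, closest to the guinea pigs. The 4 contrasts were -1.18 to -1.56 (largest adjusted p = 0.0015), and Sc5d stayed in the set when any single heart library was left out. Tm7sf2 was 8.89, 8.70 and 8.56 in the naked mole-rats, 6.93, 6.93 and 6.82 in the guinea pigs, 6.33, 6.28 and 6.42 in the mice, and 5.95, 6.42, 6.08, 6.20 and 6.10 in the Damaraland mole-rats. Naked mole-rat hearts were above all others, with differences of 1.82 to 2.56 (largest adjusted p = 3.52e-08), with 344 scaled reads on average against 13.09 in Damaraland mole-rats.

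Cyp51 in heart was 10.05, 10.14 and 10.36 in the guinea pigs, 9.90, 10.00 and 9.45 in the naked mole-rats, 9.26, 9.08, 9.69, 8.83 and 9.11 in the Damaraland mole-rats, and 8.42, 8.69 and 8.68 in the mice. Its highest values were in guinea pigs, and neither the average contrast (0.10 (SE 0.14, adjusted p = 0.55)) nor the contrast between mole-rats (0.59 (SE 0.19, adjusted p = 0.0109)) was called. In liver its average contrast was called and its contrast between the mole-rats was not, and the difference between tissues was not tested. Nsdhl was called higher in the average contrast, 1.20 (SE 0.10, adjusted p = 1.92e-08), and ranged over 8.55 to 8.69 in naked and 7.68 to 7.93 in Damaraland mole-rats, above 6.81 to 7.16 in guinea pigs and 6.91 to 7.18 in mice. Ebp was called lower in the naked than in the Damaraland mole-rat, at -1.22 (SE 0.20, adjusted p = 6.29e-05). Fdft1, Msmo1 and Dhcr7 were called in neither of these contrasts, with average differences of -0.25, 0.44 and 0.87. Among the heart contrasts of 1 mole-rat species with 1 outgroup, Fdft1 was called in none of the 4, and Msmo1 in 1, Damaraland mole-rat minus mouse, at 1.31 (SE 0.31, adjusted p = 0.00138).

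In fatty acid synthesis of the heart, Acaca gave the largest difference between 2 species of any member in that tissue. It was 15.13, 14.86, 14.89, 14.79 and 13.95 in the Damaraland mole-rats, 10.37, 10.42 and 10.55 in the naked mole-rats, 10.33, 10.35 and 10.30 in the guinea pigs, and 8.999, 9.33 and 9.34 in the mice. The 5 Damaraland hearts were above every other heart, with differences of 4.28 to 5.503 (largest adjusted p = 3.72e-11), and the 3 mouse hearts were below every other, with differences of -1.10 to -5.503 (largest adjusted p = 0.000651). The mouse call was lost without mouse replicate 1 (-0.99). Mean scaled reads were 27969 in Damaraland mole-rats, 1318 in naked mole-rats, 1204 in guinea pigs and 521 in mice. Acacb, the carboxylase usually prominent in heart, was 13.53, 13.49 and 13.77 in the mice, 12.29, 12.41 and 12.77 in the guinea pigs, 12.36, 12.42, 12.58, 12.84 and 12.10 in the Damaraland mole-rats, and 12.31, 11.70 and 11.67 in the naked mole-rats. The mice were higher, with differences of 1.11 to 1.71 (largest adjusted p = 0.000384), and the Damaraland mole-rats and guinea pigs, whose livers held almost no Acacb reads, had 5639 and 5727 scaled reads in heart.

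Fasn in heart was 11.86, 11.57, 11.73, 11.14 and 11.91 in the Damaraland mole-rats, 11.63, 11.40 and 10.97 in the naked mole-rats, 10.52, 10.48 and 10.48 in the guinea pigs, and 9.49, 9.78 and 9.79 in the mice. Every mole-rat heart exceeded every outgroup heart, and the average contrast was 1.40 (SE 0.14, adjusted p = 1.98e-07). The contrast of naked mole-rat with guinea pig, 0.84 (SE 0.21, adjusted p = 0.00237), was under the size threshold, which kept Fasn out of the set shifted in both. Acly was 10.76, 10.56, 10.61, 10.58 and 10.91 in the Damaraland mole-rats, 10.18, 10.05 and 10.32 in the guinea pigs, 10.20, 10.15 and 9.66 in the naked mole-rats, and 9.15, 9.43 and 9.25 in the mice. The Damaraland hearts were highest and the mouse hearts lowest, each without overlap, and the average contrast of 0.62 (SE 0.12, adjusted p = 0.000186) was not called for size. Me1 was 11.56, 11.54 and 11.66 in the mice, 9.73, 9.41, 9.49, 9.23 and 10.00 in the Damaraland mole-rats, 8.96, 8.56 and 8.96 in the naked mole-rats, and 8.26, 8.996 and 8.55 in the guinea pigs. The mice were higher, with differences of 2.01 to 2.99 (largest adjusted p = 1.11e-07), while the guinea pig hearts had 319 scaled reads on average. Acss2 was not called in the average contrast (0.85 (SE 0.17, adjusted p = 0.000333)), with 10.07 to 11.42 in naked and 10.33 to 10.73 in Damaraland mole-rats.

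Fads1 was the second member higher in naked mole-rat heart alone. It was 11.08, 10.72 and 10.73 in the naked mole-rats, 9.23, 9.24 and 9.49 in the guinea pigs, 8.60, 8.63 and 8.55 in the mice, and 8.70, 8.64, 8.48, 8.37 and 8.66 in the Damaraland mole-rats. The naked mole-rats lay above all others, with differences of 1.52 to 2.28 (largest adjusted p = 3.43e-07), and Damaraland mole-rats and mice overlapped. Fads2 followed a like order, with means of 9.04 in naked mole-rats, 8.73 in guinea pigs, 7.43 in Damaraland mole-rats and 7.39 in mice, and a naked minus Damaraland difference of 1.61 (SE 0.25, adjusted p = 3.92e-05). In the naked mole-rat hearts, where Fads1 and Tm7sf2 were high, the summed hepatocyte markers were also above those of other hearts, as given above, and the part of this in those values was not tested. Elovl5 was 9.70, 9.28 and 8.77 in the naked mole-rats, 9.30, 8.76, 8.99, 8.82 and 8.61 in the Damaraland mole-rats, 8.12, 6.95 and 7.86 in the guinea pigs, and 8.96, 9.11 and 8.83 in the mice. The guinea pigs were lower, with differences of -1.25 to -1.61 (largest adjusted p = 0.000603), a call lost without guinea pig replicate 2 (-0.90), the lowest of them. Elovl6 was 7.23, 6.96 and 7.72 in the naked mole-rats, 7.52, 7.59, 7.33, 7.10 and 7.14 in the Damaraland mole-rats, 7.07, 8.93 and 6.88 in the guinea pigs, and 6.02, 6.12 and 6.08 in the mice. The mice were lower, with differences of -1.23 to -1.55 (largest adjusted p = 0.00868), with 10.2 scaled reads on average, a call lost without guinea pig replicate 2 (-0.90).

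Insig1 was the regulator with the widest range in heart. Its values were 11.79, 11.18, 11.78, 10.80 and 11.10 in the Damaraland mole-rats, 8.31, 8.59 and 9.11 in the mice, 7.75, 7.21 and 6.75 in the naked mole-rats, and 6.85, 7.05 and 6.63 in the guinea pigs. Damaraland hearts were above all others, with differences of 2.66 to 4.49 (largest adjusted p = 1.4e-07), with 2586 scaled reads on average against 48.1 in guinea pigs and 86.1 in naked mole-rats. Insig2 was 9.82, 9.32 and 9.09 in the naked mole-rats, 9.53, 9.56, 9.80, 9.25 and 9.05 in the Damaraland mole-rats, 9.89, 10.09 and 9.92 in the guinea pigs, and 9.66, 9.79 and 9.92 in the mice. It differed far less, and neither the average contrast (-0.46 (SE 0.14, adjusted p = 0.00831)) nor the contrast between mole-rats (-0.03 (SE 0.19, adjusted p = 0.899)) was called.

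Srebf1 in heart was 10.14, 9.95, 10.03, 9.34 and 10.59 in the Damaraland mole-rats, 9.27, 9.73 and 9.54 in the mice, 8.59, 9.005 and 9.17 in the naked mole-rats, and 8.32, 8.22 and 8.11 in the guinea pigs. The naked minus Damaraland difference was -1.09 (SE 0.22, adjusted p = 0.000426), a call lost without Damaraland mole-rat replicate 5 (-0.94) and naked mole-rat replicate 1 (-0.92). The guinea pigs were the lowest group without overlap. Srebf2 was 9.65, 9.34 and 10.05 in the naked mole-rats, 10.47, 9.80, 10.33, 9.40 and 10.32 in the Damaraland mole-rats, 10.11, 9.97 and 9.83 in the guinea pigs, and 9.35, 9.38 and 9.37 in the mice. Neither the average contrast (0.20 (SE 0.17, adjusted p = 0.284)) nor any contrast of 2 species was called. Scap was called lower in the naked than in the Damaraland mole-rat, at -1.53 (SE 0.20, adjusted p = 6.27e-06), and naked replicate 3, the shallowest heart library, gave its lowest value, 8.07.

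Mlxipl in heart was 7.45, 7.47 and 6.55 in the naked mole-rats, 7.36, 7.34, 6.90, 7.75 and 6.92 in the Damaraland mole-rats, 7.54, 7.20 and 7.59 in the guinea pigs, and 8.54, 8.69 and 8.88 in the mice. The mice were higher, with differences of 1.26 to 1.54 (largest adjusted p = 0.000417), and the other 3 species overlapped. Thrsp was 9.20, 8.69 and 9.05 in the mice, 7.17, 7.08, 7.17, 6.72 and 7.40 in the Damaraland mole-rats, 6.72, 6.16 and 6.62 in the naked mole-rats, and 5.62, 5.84 and 5.65 in the guinea pigs. The mice were higher, with differences of 1.87 to 3.28 (largest adjusted p = 1.02e-07), and the guinea pigs, at 2.49 scaled reads on average, were near 0. Mouse hearts were therefore higher alone for 5 members (Acacb, Me1, Hsd17b7, Mlxipl and Thrsp) and lower alone for 4 (Acaca, Elovl6, Lss and Sqle), where 6.6% and 3.8% of all genes were.

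**Figure D4:**
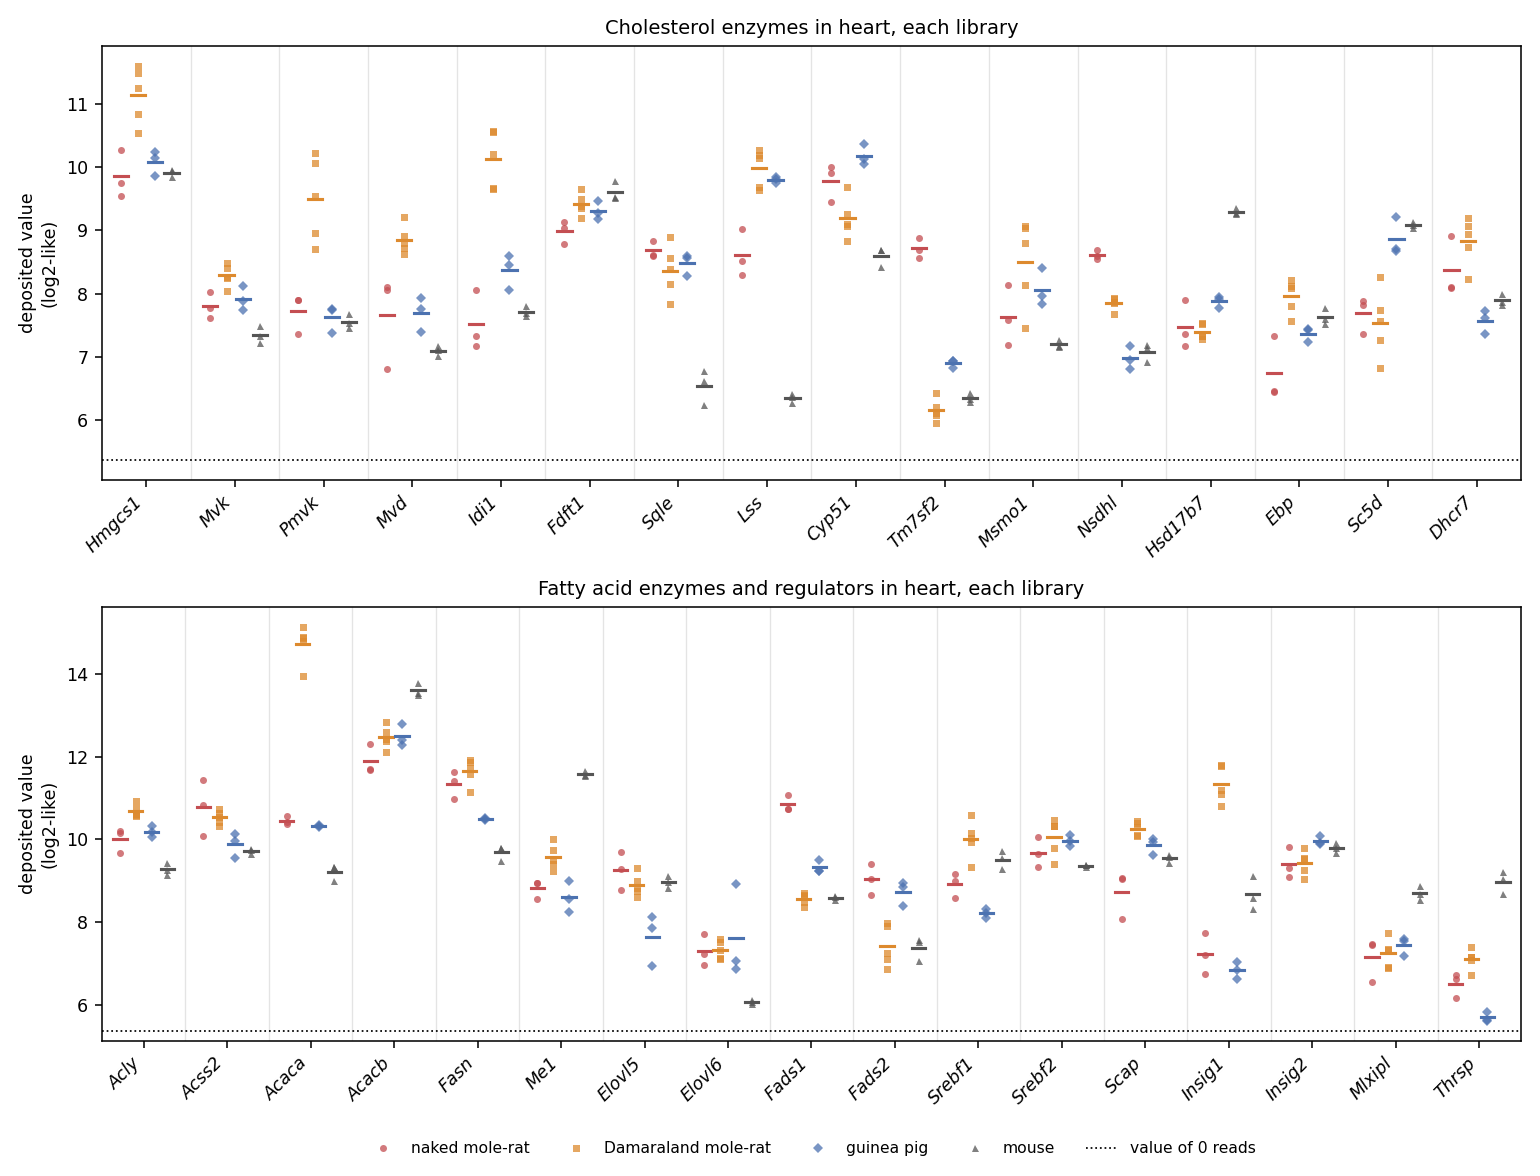
Deposited log2-like value of each heart library for the 16 cholesterol enzymes (upper panel) and the fatty acid enzymes and regulators (lower panel), with bars at species means and a dotted line at the value of 0 reads (5.36). Damaraland points stand above all others for Idi1, Pmvk, Mvd, Hmgcs1, Acaca and Insig1, naked mole-rat points for Tm7sf2 and Fads1, and mouse points are lowest for Lss and Sqle.

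Markers of fat cells were examined beside the Damaraland heart values, since heart samples can include fat that expresses these pathways. All 8 listed white adipocyte genes were in the tables and summed to 3748 to 5370 scaled reads in Damaraland hearts, 5409 to 6587 in mouse, 1725 to 4252 in guinea pig and 1117 to 1900 in naked mole-rat hearts. Fabp4, which heart endothelium also expresses, made up most of these sums, at 5385 to 6535 scaled reads in mouse and 2792 to 4520 in Damaraland hearts. Retn was at 0 in every naked mole-rat and guinea pig heart and Lep at 0 in every mouse heart. Adipoq, which defines adipocytes, had 42.5 to 183 scaled reads in Damaraland hearts, 5.07 to 51.9 in naked mole-rat, 0.788 to 27.6 in guinea pig and 0 to 4.01 in mouse hearts, and Cidec had 61.7 to 144 in Damaraland hearts and at most 44.5 in the others. The highest values of Plin1, Lep and Retn were also in Damaraland hearts. Pck1 and Cfd did not follow. Pck1 had 173 to 421 scaled reads in naked mole-rat and 12.3 to 223 in Damaraland hearts, and Cfd 123 to 745 in guinea pig and 195 to 728 in Damaraland hearts. Of 4 listed brown adipocyte genes 3 were in the tables. Ucp1 had 0 to 48.0 scaled reads in Damaraland hearts and was at 0 in every other heart. Ppargc1a had 2633 to 4158 in Damaraland hearts, overlapping 1706 to 3489 in naked mole-rat and 1792 to 2711 in mouse hearts. Elovl3 had 0 to 6.98 in Damaraland hearts and 7.88 to 20.7 in guinea pig hearts. The part of fat cells in the Damaraland values was not tested.

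The tissues were next compared within each species, in reads scaled to the same total of reads outside the mitochondrial genome. Every liver library was above every heart library for 28 of the 33 members in naked mole-rat, 32 in mouse, 22 in guinea pig and 28 in Damaraland mole-rat. For the 11 sterol enzymes this held for all 11 in Damaraland mole-rat, guinea pig and mouse and for 10 in naked mole-rat. Heart was above liver for Acacb in Damaraland mole-rat and in mouse. In guinea pig it was above liver for 5 members: Acss2, Acacb, Me1, Fads1 and Fads2. No other species had heart above liver for Acss2, Me1, Fads1 or Fads2. These counts were made for the members only. The share of all genes with such a separation was not computed, so they are not read as particular to the members.

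Across contrasts of single species, 8 pairs of calls went in opposite directions in the 2 tissues with no overlap of libraries in either. Fads1 and Fads2, for example, were higher in naked mole-rat than in mouse in heart, at 2.25 (SE 0.16, adjusted p = 2.44e-09) and 1.65 (SE 0.28, adjusted p = 8.05e-05), and lower in liver, at -1.57 (SE 0.49, adjusted p = 0.00929) and -1.95 (SE 0.48, adjusted p = 0.00178). The average contrast had no member called in opposite directions: 7 were called higher in both tissues, 1 lower in both, 12 in liver alone and 1 in heart alone. The tables were transformed separately, and the difference between tissues was not tested. Calls shared by the tissues or opposed between them were counted for the members only, and the shares over all genes were not computed.

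Of 58 further genes of these pathways, 53 had a row in the tables. They comprise 27 further enzymes, 15 further regulators and 11 genes of cholesterol uptake, transfer and efflux. In liver 52 were tested, of which 8 were called higher and 5 lower in the average contrast, where 15.1% and 13% of all genes were, with a median difference of 0.09. In heart 47 were tested, of which 6 were called higher and 9 lower, where 10.8% and 12.6% of all genes were, with a median of -0.07. Shifted in both mole-rats were 1 higher and 1 lower in liver, where 3.42% and 2.87% of all genes were, and 0 higher and 2 lower in heart, where 2.06% and 2.62% were. In liver, Acss1, the mitochondrial acetyl-CoA synthetase, was higher by 1.42 (SE 0.22, adjusted p = 2.55e-05) in the average contrast, and Hacd2, a dehydratase of fatty acid elongation, was lower, at -1.40 (SE 0.14, adjusted p = 1.58e-07). In heart, Gpam, the acyltransferase that begins glycerolipid synthesis, was lower, at -3.30 (SE 0.11, adjusted p = 8.28e-13), and Hacd1, another elongation dehydratase, was lower at -1.45 (SE 0.16, adjusted p = 4.3e-07).

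Animals of 1 species differed from each other over many members at once. Each library was set against the mean of its species in that tissue, and the median of these deviations was taken over the 16 cholesterol enzymes, the 10 fatty acid enzymes and the 7 regulators. Naked mole-rat liver replicate 3 had a median deviation of 0.43 over the cholesterol enzymes and was the highest of its species for 11 of the 16. Replicate 1 had -0.43 over the cholesterol enzymes and -0.61 over the fatty acid enzymes, and was the lowest for 11 of 16 and 8 of 10. The same 2 animals gave naked mole-rat hearts 1 and 2, with 0.13 and -0.20 over the cholesterol enzymes. Other animals with both tissues went both ways. Guinea pig livers 1, 2 and 3 had 0.25, -0.099 and -0.16, and the hearts of the same animals -0.049, 0.052 and 0.049. Damaraland livers 3 and 5 had -0.052 and -0.10, and their hearts 0.12 and 0.23. Signs were alike for Damaraland livers 1 and 2 (-0.28 and 0.23, hearts -0.014 and 0.059) and mouse liver 2 (0.23, heart 0.029). Damaraland liver replicate 4, the only female, deviated by -0.40 over the fatty acid enzymes and -0.39 over the regulators, and by 0.23 over the cholesterol enzymes. Sex rests on this 1 animal, and its effect was not tested. Mouse liver replicate 2 was above replicate 1 for 14 of 16 cholesterol enzymes and all 10 fatty acid enzymes. Among the Damaraland hearts replicate 4 was lowest for 9 of 16 cholesterol enzymes, with a median of -0.31. Over all genes tested the median deviation of a library ran from -0.030 in naked mole-rat heart 2 to 0.043 in naked mole-rat heart 3. Genes highest, lowest or above in a library were counted for the members only.

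**Figure D5:**
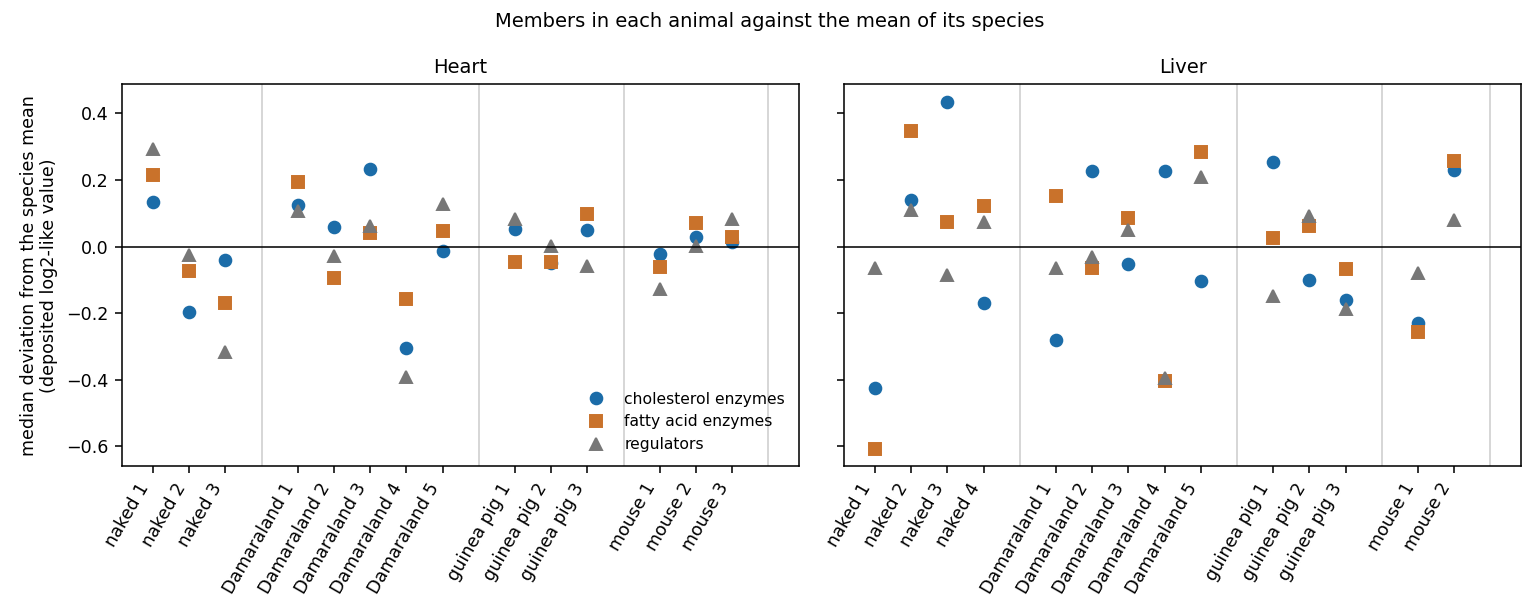
Median deviation of each library from the mean of its species (deposited log2-like values) over the 16 cholesterol enzymes, 10 fatty acid enzymes and 7 regulators, for heart (left) and liver (right). Liver libraries ranged from -0.61 to 0.43 and heart libraries from -0.39 to 0.29. In liver, naked mole-rat replicates 1 and 3 were at opposite ends for cholesterol enzymes.

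Acaca and Acacb, Insig1 and Insig2, Srebf1 and Srebf2, and Fads1 and Fads2 are pairs of related genes. How reads that match both members of a pair were divided, and how genes were assigned across species, was not given in the sources used here. For Acacb in Damaraland mole-rat and guinea pig and for Me1 and Fads2 in guinea pig, the rows near 0 reads in liver held reads in the hearts of the same species, at 5639 and 5727 scaled reads on average for Acacb, 319 for Me1 and 351 for Fads2. Thrsp was near 0 reads in guinea pig in both tissues, and whether the gene or its annotation is low there was not tested.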

How the data were processed

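Ribosomal-RNA-depleted total RNA of 14 heart and 14 liver samples was sequenced, per the labels' protocols. The authors deposited 1 table per tissue of variance-stabilised values on a log2 scale, 13928 rows of mouse gene identifiers each, of which 13921 matched a symbol. The submitters' processing notes name cutadapt, Salmon 013.1, DESeq2 and GRCm38, without roles. The gene models of each species and the assignment of orthologs were not given in the sources used here. Of the value columns, 15 in heart and 11 in liver belong to no sample here and were not used.

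Samples were grouped by species and tissue from their labels. Reads were recovered by inverting the transform and dividing by the value of 1 read. Within 1e-06 reads, 100% of values were whole (largest deviation 8.8e-08 in heart and 1.4e-07 in liver). Recovered reads gave the depths, from 4089633 to 26985779 per library, and scaled reads, and were tested with voom as an alternative. They carry no correction for transcript length.

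The deposited log2 values were fitted with limma 3.58.1 in R 4.3.3, per tissue over all 14 libraries, with a coefficient per species. Variances were moderated by empirical Bayes with a trend, and p-values were adjusted over all genes tested by the Benjamini-Hochberg method. Genes with a mean under the value of 0 reads plus 1 were left out, leaving 10667 in heart and 10887 in liver. The members and gene lists were chosen with earlier results of these data known. Values in every library are given for members shifted in both mole-rats, members called in a species alone and the control points Hmgcs1, Sqle, Cyp51, Insig1, Insig2, Srebf1, Srebf2, Acly, Acaca, Fasn, Thrsp and Mlxipl; further pathway genes are named only if shifted in both mole-rats. Alternatives were no size threshold, treat, other filters, median centring, quantile normalization, no variance trend, a replicate block, voom and leaving out each library. The fit was tested on simulated reads with known changes in both mole-rats. In the average contrast it called 11% of 2-fold changes in heart and 23% in liver, and 90% and 96% of 4-fold changes. As shifted in both mole-rats it counted 0% and 3% of 2-fold changes, and 72% and 86% of 4-fold changes. A member without a call can therefore still differ by about 2-fold. On this scale a 2-fold change lies at or under the size threshold, which by itself limits the shares called at 2-fold. The share called without that threshold was not tested. Replicate numbers name different species' animals and do not pair them. Promoter and protein sequences were not used here.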

Additional observations from a re-analysis of the deposited data

Results flagged for a closer look

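Among 99 groups of 4 or 5 libraries, 6 held a value whose gap to the nearest other value took most of the range of its group. Chance gives such a value in about 1 in 20 groups. All 6 were in liver. Hmgcs1 was 14.26 in naked mole-rat replicate 3, above the other 3 naked mole-rats at 12.52 to 12.57. Ebp was 9.94 in naked mole-rat replicate 2. Mvk was 8.61 and Cyp51 was 11.90 in Damaraland replicate 5, below the other 4 animals in each case. Srebf1 was 11.001 and Elovl6 was 13.21 in Damaraland replicate 4, the female, again below the other 4 animals. Whether the sex of that animal plays a part was not tested.

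Some contrasts between 2 species were called in opposite directions in the 2 tissues, with no overlap of libraries in either tissue. The difference between tissues was not tested. Naked mole-rat minus mouse was 2.25 in heart and -1.57 in liver for Fads1, and 1.65 and -1.95 for Fads2. Damaraland mole-rat minus guinea pig was -1.30 in heart and 4.54 in liver for Fads2. Damaraland mole-rat minus mouse was 1.41 in heart and -1.49 in liver for Acly, and -1.90 and 1.07 for Hsd17b7. Guinea pig minus mouse was 1.10 in heart and -1.99 in liver for Acaca, 1.55 and -2.33 for Elovl6, and 1.34 and -7.91 for Fads2.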

How the results depend on the processing

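Counts of members called moved by over 1.5 times mainly with the size threshold. Without it, the average contrast called 26 members in heart, both mole-rats shared 4, naked against Damaraland gave 22, naked alone 6 and guinea pig alone 3. In liver both mole-rats then shared 10 and naked alone had 6. Of all 10667 heart genes, the fit without the size threshold called 7182 in the average contrast and 1580 in both mole-rats. It called 6661 for naked against Damaraland and 2498 for naked alone, so many genes besides the members were gained. Shares over all genes are not given here for the other alternative counts. Under treat, limma's test against a difference of 1, the average contrast called 1 in heart, naked against Damaraland 6 and mouse alone 4, and both mole-rats and guinea pig alone had 0. In liver treat called 13 in the average contrast, 11 for naked against Damaraland and 4 for Damaraland alone, with 0 for both mole-rats, naked alone and mouse alone. At an unadjusted p under 0.05, the treat counts of 0 became 2 for both mole-rats and 1 for mouse alone in liver and were again 0 for the others. Among genes above the median of the table, where fewer genes are tested, naked alone had 1 and mouse alone 5 in heart. In heart, voom on the recovered reads called 15 members in the average contrast and 2 in both mole-rats. It gave 4 to the naked mole-rat alone and 2 to guinea pig alone. Quantile normalization gave 8 for both mole-rats in liver. Leaving out single libraries gave 0 to 1 for guinea pig alone and 1 to 2 for both mole-rats in heart, and 3 to 8 for both mole-rats in liver. Where no construction of the alternative shows it, the cause was not tested.

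The replicate block was fitted without Damaraland replicates 4 and 5 in heart and 5 in liver, whose numbers no other species has. It moved no count by over 1.5 times: both mole-rats in liver became 7 and naked against Damaraland in liver 18. Correlations of same-numbered libraries averaged -0.000205 in heart and 7e-04 in liver, so the numbers do not pair the animals. In that fit the sign of naked minus Damaraland turned for Sc5d in heart (-0.17) and liver (-0.035) and Mlxipl in liver (0.0062). Leaving out Damaraland replicate 5 with no block gave the same values in liver and also turned Sc5d in heart (-0.017), so these changes of sign come with the libraries left out.

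The other changes of sign, all of differences that were not called, were also few. Voom gave naked minus Damaraland differences of -0.094 for Hsd17b7, 0.0076 for Insig2 and 0.14 for Mlxipl and an average contrast of 0.26 for Thrsp in heart, and 0.00099 for Msmo1 in liver. Median centring gave 0.034 for Msmo1, and quantile normalization -0.026 for Sc5d, in liver. Leaving out single libraries, naked minus Damaraland in heart ran from -0.24 to 0.14 for Elovl6, -0.23 to 0.13 for Insig2, -0.25 to 0.20 for Mlxipl, -0.017 to 0.34 for Sc5d, -0.080 to 0.59 for Acss2 and -0.13 to 0.23 for Hsd17b7. In liver it ran from -0.21 to 0.45 for Sc5d, -0.014 to 0.32 for Pmvk, -0.22 to 0.20 for Msmo1, -0.50 to 0.0062 for Mlxipl, -0.18 to 0.089 for Srebf2, -0.40 to 0.057 for Acly and -0.017 to 0.43 for Sqle.

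Limits are the 2 mouse livers, the ages that differ with species, the absence of length correction, and the low depth of naked mole-rat heart replicate 3 (4089633 reads). Another limit is that most simulated 2-fold changes, which lie at or under the size threshold, were not called. The p-values also do not measure variation between species within the mole-rats or the outgroups. Median centring and quantile normalization moved the median difference of all genes by at most 0.0676.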
